A study of Mus musculus with 24 samples.

Results

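Collagens and laminins are the structural proteins of the extracellular matrix, and their genes were read here as a group of 55 of the 54242 genes in the deposited expression table. Members were taken by symbol, as every collagen chain (44 genes) and every laminin chain (11 genes). Type IV collagens and laminins, which build basement membranes, make up 17 of them. Fibrillar chains of types I, II, III, V and XI make up 9, and the other collagens 29.

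A collagen molecule is a helical trimer of chains, and a laminin is a trimer of an α, a β and a γ chain. In a basement membrane, laminin sheets bound to integrins and dystroglycan lie over a network of type IV collagen, with nidogen and perlecan between them. Fibrillar collagens assemble in mesenchymal matrix into banded fibres. In the early mouse embryo, laminin and type IV collagen are made by the epiblast and by the extraembryonic endoderm, and fibrillar collagens become abundant as mesenchyme forms.

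RNA-seq was measured in 24 libraries of CGR8 cells, a mouse ESC line, in 8 groups of 3. Cells received non-targeting siRNAs (si-CTL) or siRNAs against Rsl24d1 (si-Rsl24d1), a factor of large ribosomal subunit assembly. They were collected either in self-renewal medium with serum and LIF (day 0) or after 4 days of 10 nM retinoic acid, RA (day 4). In the rescue groups, doxycycline induced an ectopic RSL24D1 open reading frame, and the groups without rescue had no doxycycline and are labelled as carrying an empty vector. The sample descriptions give 48 h and the treatment protocol 72 h between transfection and collection, and the protocols and the study's methods name different library kits and disagree on LIF during RA treatment. Which of them holds was not determined here.

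Levels were deposited as log2(TPM + 1). TPM, transcripts per 1000000, is scaled to gene length and sums to 1000000 in each library. Read numbers are not kept, so the depth is unknown and the error comes from the 3 libraries per group. The labels call these independent triplicates. Rsl24d1 was at 136 to 148 TPM in day 0 si-CTL and at 32.7 to 37.9 TPM in day 0 si-Rsl24d1 libraries. At day 4 it was at 95.9 to 101 and at 89.3 to 99.8 TPM, a log2 difference of -0.04 (SE 0.07, adjusted p = 0.66 from limma). Under median of ratios scaling, which sets the libraries to a common median ratio, that difference was -0.20 with an adjusted p below 0.01 from limma, still under the fold threshold used here. The stem cell marker Pou5f1 was at 1090 to 1120 TPM in day 0 si-CTL and at 496 to 547 TPM in day 4 si-CTL libraries. In 23 of 24 libraries the most similar other library was of the same group, and the loosest match within its group was the day 4 si-Rsl24d1 replicate 1, at a mean correlation of 0.985.

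Of the 55 genes, 39 had a mean log2(TPM + 1) of at least 0.5 and were tested among 16447 genes with limma, and 16 were not. A gene is called, and said to have risen or fallen, where its adjusted p was below 0.01 and its change exceeded 1.8-fold, which is 0.85 on the log2(TPM + 1) scale. Log2 differences on this scale are smaller than ratios of TPM for weakly expressed genes. In bulk RNA, fewer cells of a type and less RNA per cell cannot be told apart.

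At day 0, the si-CTL cells held more basement membrane than fibrillar transcripts. Col18a1, the chain that releases endostatin, was the most abundant member at 106, 92.2 and 98.6 TPM, and is counted here with the other collagens. Lamc1, the γ chain of most laminins, followed at 85.2, 72.7 and 69.3 TPM, below every Col18a1 value. Lamb1, its usual β partner, was at 30.3 to 37.3 TPM and Lama5, the α chain prominent in the epiblast, at 29.1 to 34.9 TPM, and these 2 ranges overlapped. Col1a1 (19.4 to 26.7 TPM) and Col4a1 (18.5 to 21.8 TPM), the leading chains of types I and IV, overlapped too. Lamb2, Col1a2, Col4a2, Col5a1 and Lama1 lay between 6.58 and 15.5 TPM. Over all 55 genes the summed level was 357 to 420 TPM, of which the basement membrane chains held 187 to 226 TPM and the fibrillar chains 44.3 to 56.0 TPM.

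Some chains were close to absent in all conditions. Col4a3 and Col4a4, the chains of the mature kidney glomerulus, never exceeded 0.245 and 0.0896 TPM. Lama2, the laminin α chain of muscle, stayed at or below 0.525 TPM and Lamc3 at or below 0.187 TPM. Col10a1, made by hypertrophic cartilage, was listed at 0 in 20 of the 24 libraries. The other genes below the filter were Col11a2, Col14a1, Col15a1, Col19a1, Col23a1, Col24a1, Col25a1, Col28a1, Col6a3, Col6a6 and Col9a1.

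Several members lie side by side in the genome. On GRCm38, Col4a1 (chr8:11198423-11312826, minus strand) and Col4a2 (chr8:11312805-11449287, plus strand) are transcribed away from each other, and the annotated genes overlap by 22 bases. Col4a5 (plus strand, from chrX:141475385) and Col4a6 (minus strand, up to chrX:141474076) are also head to head, without an overlap. Col3a1 (chr1:45311538-45349706) and Col5a2 (chr1:45374321-45503282) are neighbours on opposite strands, and Col6a5 (chr9:105856078-105960643) and Col6a4 (chr9:105989454-106096783) are neighbours on the minus strand.

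Comparing day 4 with day 0 asks how these genes differ after 4 days of RA. In si-CTL cells Col3a1, Col1a2, Col5a2 and Col2a1 of the fibrillar chains and Col4a1 and Col4a2 of the basement membrane chains rose. Of the laminin chains, 0 were called. In this comparison 12 of the 39 tested members were called, 11 higher and 1 lower, where 15% of all tested genes were called, 6.77% higher and 8.24% lower. Under median of ratios scaling, which moved the median of all genes from -0.10 to 0.01 on the log2 scale, 13 members were called, all higher. The called genes included 4 of 8 tested fibrillar chains and 2 of 13 tested basement membrane chains. The median log2 difference was 0.99 over the fibrillar chains, 0.24 over the basement membrane chains, 0.20 over the other collagens and -0.10 over all genes tested.

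Among the fibrillar chains, Col3a1, the partner of type I collagen in elastic tissues, was at 1.08, 1.54 and 1.11 TPM at day 0 and at 10.2, 14.3 and 11.6 TPM at day 4. Every day 4 library lay above every day 0 library, and Col3a1 rose by 2.53 on the log2 scale (SE 0.20, adjusted p = 9.6e-10 from limma). Col1a2, the second chain of type I collagen, went from 11.7, 9.45 and 9.46 TPM to 42.2, 40.0 and 45.0 TPM, a log2 rise of 1.96 (SE 0.10). Its partner Col1a1 went from 26.7, 19.4 and 19.5 TPM to 37.5, 33.1 and 39.0 TPM. The Col1a1 libraries also did not overlap, but the log2 difference of 0.73 (SE 0.15, adjusted p = 2.1e-04 from limma) was below the 1.8-fold threshold. Col5a2, which nucleates and limits fibre width together with Col5a1, rose by 1.64 and Col2a1, the cartilage collagen, by 1.26. Col5a1 differed by 0.70 and Col11a1 by 0.42, and Col5a3 was lower by 0.44 (adjusted p = 5.7e-06 from limma), all below the threshold.

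Among the basement membrane chains, Col4a1 was at 21.8, 18.5 and 18.9 TPM at day 0 and at 40.8, 34.0 and 36.5 TPM at day 4. Col4a2 went from 11.3, 9.54 and 9.30 TPM to 26.6, 24.1 and 26.4 TPM. Both rose without overlap of the groups, by 0.88 (SE 0.11) and 1.28 (SE 0.10) on the log2 scale. The Col4a1 call was lost without day 0 si-CTL replicate 2 (0.83) or replicate 3 (0.847) or day 4 si-CTL replicate 1 (0.81). Lama5 went from 34.9, 33.9 and 29.1 TPM to 18.0, 16.3 and 19.4 TPM, a log2 difference of -0.83 (SE 0.11, adjusted p = 2.2e-06 from limma) that missed the fold threshold. Lamc1 differed by -0.61 and Lama1, the α chain of the earliest embryonic laminins, by -0.59, both with an adjusted p of 3.8e-04 or less from limma, and both below the fold threshold. Lamb1 was at 33.4 TPM at day 0 and 35.4 TPM at day 4 on average, a log2 difference of 0.08 with a 95% interval of -0.14 to 0.30. Lama4, of vessel basement membranes, differed by 0.65, below the threshold. With 0.1 instead of 1 added to the TPM, 21 members were called, among them Lama4, Col4a5 and Col4a6 as higher and Lama5 as lower.

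Of the other collagens, 6 of 18 tested were called. Col12a1, a fibre-associated collagen, rose from 0.850 to 8.19 TPM on average, by 2.31 (SE 0.12) on the log2 scale. Col6a1, of the beaded filaments around cells, rose by 1.41 and Col8a1, a short-chain network collagen, by 1.19, while Col9a3 fell by 0.85. The Col9a3 call was lost under median of ratios scaling (-0.77), with 2 added to the TPM (-0.61), and without day 0 si-CTL replicate 1 (-0.80) or 3 (-0.81) or day 4 si-CTL replicate 2 (-0.70). Col20a1 and Col22a1 also rose.

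In si-Rsl24d1 cells, 22 of the 39 tested members were called between day 0 and day 4, 19 higher and 3 lower, where 14.1% of all tested genes were called, 7.93% higher and 6.22% lower. All but Col5a3 of the 8 tested fibrillar chains rose, and so did 7 of 13 tested basement membrane chains. Col3a1 rose most, from 0.773, 1.74 and 0.672 TPM to 45.3, 52.5 and 60.4 TPM, by 4.73 on the log2 scale (SE 0.20, adjusted p = 7.2e-14 from limma). Col12a1 rose by 3.63, Col1a1 by 2.78, Col1a2 by 2.61, Col5a2 by 2.25, Col8a1 by 2.21 and Col5a1 by 1.94. Type IV chains rose as well, Col4a2 by 1.92, Col4a1 by 1.64, Col4a5 by 1.57 and Col4a6 by 0.93, and among the laminins Lama4 rose by 1.67, Lama1 by 1.23 and Lamb2 by 0.94. Col6a4, Col6a5 and Col9a3 fell by 2.09, 1.29 and 1.03. These libraries are also those of the siRNA comparisons of each day, so the values are not independent of them. In the rescue groups, 18 members were called in si-CTL cells (15.6% of all tested genes) and 19 in si-Rsl24d1 cells (14.9%).

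**Figure D1:**
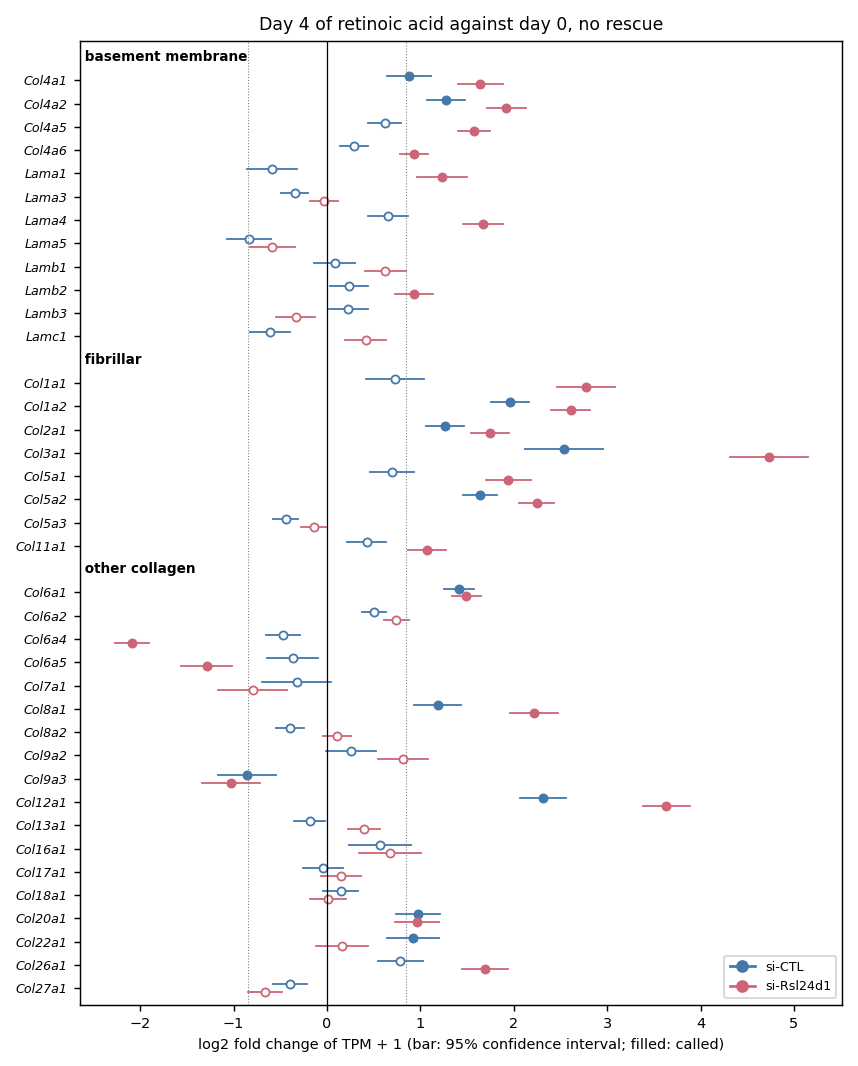
Log2 fold change of TPM + 1 at day 4 against day 0 for all but 1 of the 39 tested members, in si-CTL (blue) and si-Rsl24d1 (red) cells without rescue. Bars are 95% confidence intervals, filled points are called, and dotted lines mark 1.8-fold; the red points of Col3a1, Col12a1 and Col1a1 lie farthest to the right, and Col6a4 lies farthest to the left at -2.09.

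At day 0, si-Rsl24d1 against si-CTL asks what depletion does in self-renewing cells. Col6a4 and Col6a5, alternative chains of type VI collagen, were the 2 called of 39 tested, both higher, where 4.18% of all tested genes were called and 3.4% were called higher. Col6a4 was at 0.784, 1.05 and 0.670 TPM in si-CTL and at 4.91, 4.68 and 4.77 TPM in si-Rsl24d1 cells, a log2 rise of 1.66 (SE 0.09, adjusted p = 7.9e-12 from limma). Col6a5 went from 2.34, 2.40 and 2.05 TPM to 5.88, 6.40 and 5.39 TPM, a rise of 1.08 (SE 0.13). The groups did not overlap for either gene. Col6a6, a related chain, was below the filter, at 0.0985 to 0.175 TPM in si-CTL and 0.137 to 0.162 TPM in si-Rsl24d1 cells. Col6a1 and Col6a2, the standard partners in type VI collagen, differed by 0.29 and 0.24. The median over the 39 members was 0.03, against -0.01 over all genes tested.

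The laminin chains moved in opposite directions below the fold threshold. Lamc1 was at 85.2, 72.7 and 69.3 TPM in si-CTL and at 55.4, 54.3 and 49.8 TPM in si-Rsl24d1 cells (log2 difference -0.50, SE 0.10, adjusted p = 6.4e-04 from limma). Lama1 was at 8.76, 8.09 and 6.58 TPM and at 4.65, 4.36 and 4.17 TPM (log2 difference -0.70, SE 0.13, adjusted p = 1.6e-04 from limma). For both genes every si-Rsl24d1 library lay below every si-CTL library. Lamb3, of epithelial laminin, was higher by 0.55, and Lamb1 and Lama5 differed by 0.26 and 0.25 with adjusted p of 0.055 and 0.09 from limma. Type I chains were lower, Col1a1 by 0.59 and Col1a2 by 0.37, with adjusted p of 0.0031 and 0.0053 from limma. Col3a1 was at 0.672 to 1.74 TPM against 1.08 to 1.54 TPM in si-CTL, and these ranges overlapped.

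With rescue, Col6a4 was again higher in si-Rsl24d1 than in si-CTL cells at day 0, at 2.17, 3.00 and 2.39 TPM against 0.633, 0.821 and 0.612 TPM (log2 rise 1.05, SE 0.09). It was the only member called of 39 in this comparison, where 1.36% of all tested genes were called. The difference between the effect of the siRNA with and without rescue was -0.61 for Col6a4 (SE 0.12, adjusted p = 0.0057 from limma). That is below the fold threshold, and 0 members were called for this difference (8 at an unadjusted p below 0.05, 0.128% of all tested genes called). Of all 16447 tested genes, 2890 were at an unadjusted p below 0.05 in limma for it.

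At day 4, si-Rsl24d1 against si-CTL asks how cells depleted before RA differ after it, and here 4 fibrillar chains, 3 type IV chains, Lama1, Col12a1 and Col8a1 rose. Of the 39 tested members, 10 were called, each of them higher, where 1.63% of all tested genes were called and 1.45% were called higher. Under median of ratios scaling the number was 6 and that of all genes was 122 higher and 47 lower instead of 238 and 30. The median of all genes was 0.13 in the deposited values and 0.00 after that scaling. Leaving out day 4 si-Rsl24d1 replicate 2 also gave 6 members, and leaving out replicate 1 gave 12. The 6 of the scaled values were Col12a1, Col1a1, Col3a1, Col4a1, Col4a5 and Lama1. The median log2 difference was 0.77 over the 8 fibrillar chains and 0.72 over the 13 basement membrane chains tested, against 0.16 over the 18 other collagens and 0.13 over all genes, and 36 of the 39 members were above 0 (29 under the other scaling). In the deposited values 11432 of all 16447 tested genes were above 0.

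Col3a1 differed most, at 10.2, 14.3 and 11.6 TPM in si-CTL and 45.3, 52.5 and 60.4 TPM in si-Rsl24d1 cells. It rose by 2.04 on the log2 scale (SE 0.20, adjusted p = 3.4e-07 from limma). Col1a1 was at 37.5, 33.1 and 39.0 TPM and at 76.8, 126 and 109 TPM, a rise of 1.46 (SE 0.15). The lowest si-Rsl24d1 library, replicate 1, was still above the highest si-CTL library for both genes. Col1a2, in contrast, was at 42.2, 40.0 and 45.0 TPM against 44.2, 55.8 and 56.0 TPM, and these ranges overlapped (log2 difference 0.28, SE 0.10, adjusted p = 0.025 from limma). Col5a1 rose by 0.91 and Col5a2 by 0.85, the latter barely past the threshold and lost in 3 of the fits that left out a library. Both calls were lost under median of ratios scaling (0.76 and 0.71). That of Col5a1 was also lost with only the groups compared and without day 4 si-Rsl24d1 replicate 2 (0.77). Col2a1 differed by 0.69 and Col11a1 by 0.46.

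The promoters of the 2 fibrillar genes below show how unlike called members can be in the sequence before their start, and that of Lamb1 is shown for an abundant laminin chain that differed by 0.80 without being called. Sequences are from RefSeq on GRCm38.p6, plus strand, from 250 bases before the start and ending before the annotated exon. Capitals mark matches, on either strand, to GGGCGG (the core of an Sp1 site, written CCGCCC on the other strand), CCAAT and TATAA. Col3a1 is chr1:45311288-45311537, Col5a1 is chr2:27886175-27886424 and Lamb1 is chr12:31265043-31265233.
Col3a1: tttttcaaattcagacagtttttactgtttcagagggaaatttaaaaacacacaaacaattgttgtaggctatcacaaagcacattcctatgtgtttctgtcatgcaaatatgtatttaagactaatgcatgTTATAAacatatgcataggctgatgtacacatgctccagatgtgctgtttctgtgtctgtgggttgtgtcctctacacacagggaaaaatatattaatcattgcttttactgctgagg
Col5a1: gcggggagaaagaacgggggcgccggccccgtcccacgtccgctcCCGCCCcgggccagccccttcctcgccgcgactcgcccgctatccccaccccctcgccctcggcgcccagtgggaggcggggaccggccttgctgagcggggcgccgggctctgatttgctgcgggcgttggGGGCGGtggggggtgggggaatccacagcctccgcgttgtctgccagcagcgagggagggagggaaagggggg
Lamb1: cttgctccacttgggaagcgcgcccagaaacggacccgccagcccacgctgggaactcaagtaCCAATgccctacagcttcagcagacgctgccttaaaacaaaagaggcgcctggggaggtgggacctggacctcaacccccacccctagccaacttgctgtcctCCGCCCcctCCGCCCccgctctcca

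The Col3a1 window was AT-rich, with 35.2% G and C, and held TATAA on both strands at overlapping positions and no GGGCGG. The Col5a1 window had 76.4% G and C, GGGCGG at 2 places and no TATAA. Lamb1 had CCAAT once and GGGCGG at 2 places. Promoters were listed for 40 members, 44 windows in all. Untested members such as Col10a1 are among them, while Col1a1, Col2a1, Col5a2, Col12a1, Lama1 and Lamc1 had none listed. The 44 windows held GGGCGG in 54.5% of cases against 32.7% of all 32851 promoters, CCAAT in 31.8% against 33.8% and TATAA in 20.5% against 22.8%. The GATA motifs AGATAA and TGATAA were in 4.55% and 2.27% of member windows against 9.99% and 7.94%. These are counts of letters, not of bound sites.

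In the basement membrane group, Col4a1 at day 4 was at 40.8, 34.0 and 36.5 TPM in si-CTL and at 64.9, 92.6 and 86.5 TPM in si-Rsl24d1 cells, a log2 rise of 1.10 (SE 0.11, adjusted p = 5.9e-07 from limma). Its head-to-head neighbour Col4a2 was at 26.6, 24.1 and 26.4 TPM and at 40.9, 56.5 and 52.9 TPM, a rise of 0.93 (SE 0.10). Again replicate 1 was the lowest si-Rsl24d1 library and lay above all si-CTL libraries. The X-linked pair gave a rise of 1.01 for Col4a5, and 0.72 (SE 0.07, adjusted p = 3.8e-07 from limma), below the fold threshold, for Col4a6.

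Lama1 was at 5.47, 4.95 and 4.16 TPM in si-CTL and at 9.09, 13.4 and 12.9 TPM in si-Rsl24d1 cells, and rose by 1.11 (SE 0.13). It was the 1 laminin called at day 4. Lama4 differed by 0.85, on the threshold but not past it, and was called without day 4 si-CTL replicate 3 (0.90) or si-Rsl24d1 replicate 1 (1.00). Lamb1, Lamb2, Lamc1 and Lama5 differed by 0.80, 0.66, 0.53 and 0.50, each with an adjusted p of 0.0018 or less from limma. Lama3 and Lamb3, chains of epithelial laminin, gave 0.03 and -0.02, with adjusted p of 0.79 or more from limma.

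Of the other collagens, Col12a1 rose by 1.35 (SE 0.12), from 8.16, 7.74 and 8.68 TPM in si-CTL to 17.7, 26.5 and 23.8 TPM in si-Rsl24d1 cells, and Col8a1 by 0.90. Col18a1, the most abundant member at day 0, was at 97.5 to 120 TPM and 98.1 to 133 TPM, with no separation (log2 difference 0.07, 95% interval -0.12 to 0.26). Col6a4 was at 0.286 to 0.344 TPM and 0.256 to 0.452 TPM, so that the rise seen at day 0 was not seen at day 4. Col14a1, another fibre-associated collagen, was below the filter with 0.122 to 0.230 TPM in si-CTL and 1.32 to 1.85 TPM in si-Rsl24d1 cells. With no filter it was called, with a rise of 1.11 (SE 0.06, adjusted p = 1.1e-09 from limma).

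**Figure D2:**
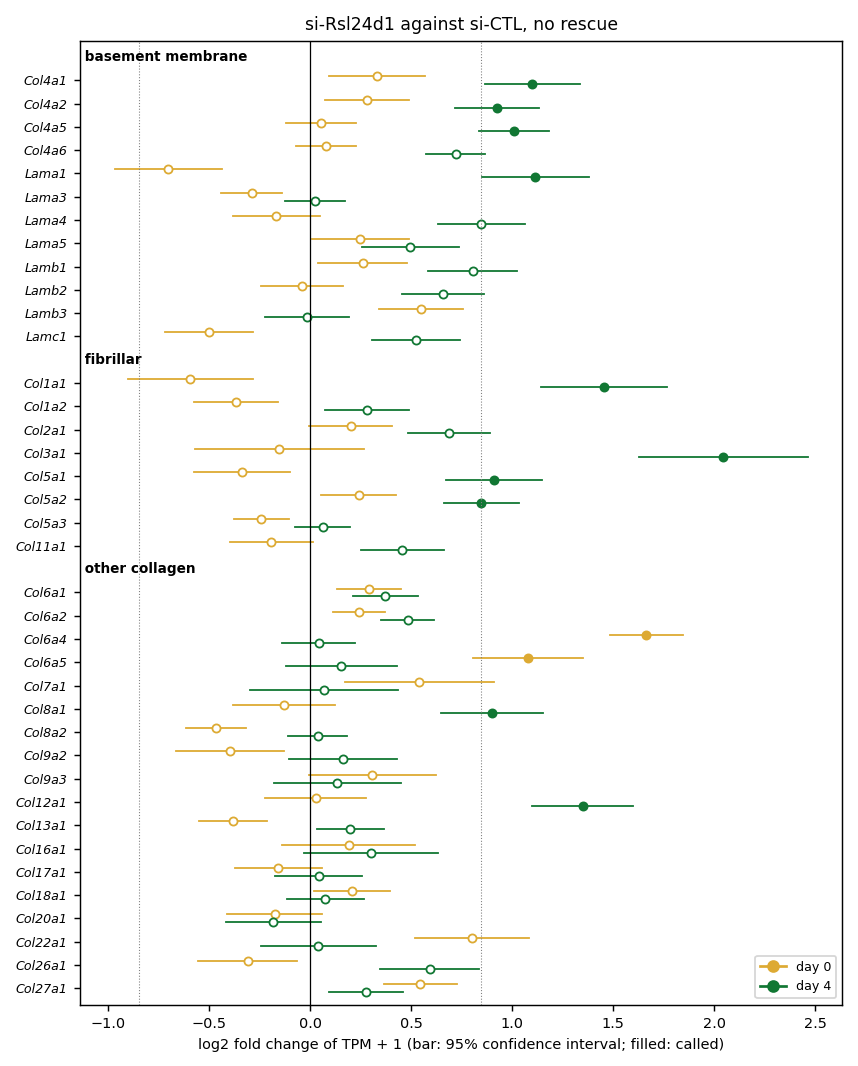
Log2 fold change of TPM + 1 in si-Rsl24d1 against si-CTL cells without rescue for all but 1 of the 39 tested members, at day 0 (yellow) and day 4 (green). Bars are 95% confidence intervals, filled points are called, and dotted lines mark 1.8-fold; Col6a4 and Col6a5 are the called genes of day 0, and the 10 called genes of day 4, led by Col3a1 at 2.04, all lie to the right.

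The effect of the siRNA therefore differed between the days for a set of members, and this difference was tested as an interaction. Of the 39 tested members, 12 were called, 10 with a higher effect at day 4 and 2 with a lower one, where 5.61% of all tested genes were called, 2.9% higher and 2.71% lower. Under median of ratios scaling the split was 8 and 3. Col3a1 (2.20, SE 0.28), Col1a1 (2.05, SE 0.21), Lama1 (1.82, SE 0.18) and Col12a1 (1.32, SE 0.17) had the largest differences on the log2 scale. Col1a1 and Lama1 were lower in si-Rsl24d1 than in si-CTL cells at day 0 and higher at day 4, and Lamc1 (1.02, SE 0.15) had the same signs. Col6a4 (-1.62, SE 0.12) and Col6a5 (-0.92, SE 0.19) were the 2 in the other direction. In the rescue groups 3 members were called for this difference (2.1% of all tested genes), Col3a1 at 1.18, Col1a1 at 1.01 and Col6a4 at -0.89. The Col3a1 call was lost in 8 of the 12 fits that left out a rescue library, at 1.05 to 1.23.

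**Figure D3:**
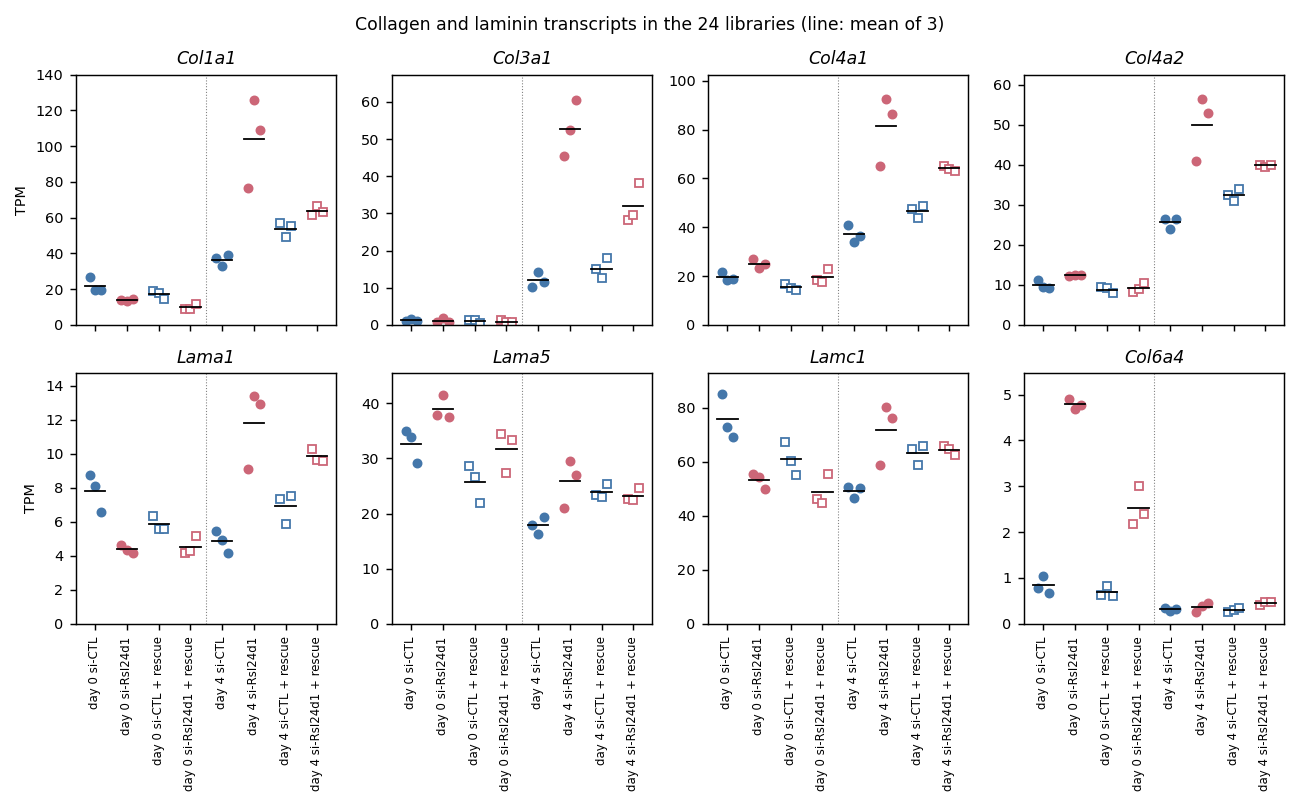
TPM (linear axis from 0) of 8 members in each of the 24 libraries, with circles for libraries without and squares for libraries with rescue, si-CTL in blue and si-Rsl24d1 in red, and a line at the mean of 3. Col1a1, Col3a1, Col4a1 and Col4a2 are on average highest in the day 4 si-Rsl24d1 group, where Col4a1 overlaps the rescued si-Rsl24d1 group. Lamc1 and Lama5 do not rise from day 0 to day 4 in si-CTL cells without rescue, and Col6a4 is highest in the day 0 si-Rsl24d1 group at 4.68 to 4.91 TPM.

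With rescue, the day 4 difference between si-Rsl24d1 and si-CTL was called for 1 member, where 0.73% of all tested genes were called. Col3a1 was at 14.9, 12.5 and 17.9 TPM in si-CTL and at 28.3, 29.6 and 38.1 TPM in si-Rsl24d1 cells, a log2 rise of 1.04 (SE 0.20, adjusted p = 0.0017 from limma). This call was lost without day 4 rescued si-CTL replicate 2 (0.92) or day 4 rescued si-Rsl24d1 replicate 3 (0.91). Col1a1 was at 56.9, 49.1 and 55.1 TPM against 61.7, 66.7 and 63.2 TPM, a difference of 0.25 with a 95% interval of -0.06 to 0.56. Col4a1 and Lama1 differed by 0.45 and 0.46, with adjusted p of 0.012 and 0.02 from limma. The median over the 39 members was 0.13, against -0.04 over all genes.

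Rescued against unrescued si-Rsl24d1 cells gave 0 called members at day 4 in limma (17 at an unadjusted p below 0.05, 0.0851% of all tested genes called) and 0 at day 0 (18, 0.28%). At an unadjusted p below 0.05 in limma were 3984 of all 16447 tested genes at day 4 and 7062 at day 0. At day 4 the differences for Col3a1, Col1a1, Col4a5 and Col12a1 were -0.71, -0.66, -0.65 and -0.54, with adjusted p of 0.027, 0.0064, 5.2e-05 and 0.006 from limma. In si-CTL cells, rescue against no rescue also gave 0 called members on either day (16 at day 0 and 22 at day 4 at an unadjusted p below 0.05, with 0% and 0.0547% of all tested genes called). Of all 16447 tested genes, 6739 at day 0 and 6407 at day 4 were at that unadjusted p in limma. At day 4 the si-CTL difference was above 0 for 32 of 39 members and for 11283 of all 16447 tested genes, with medians of 0.22 and 0.09. Under median of ratios scaling the all-gene median was -0.01.

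Summed TPM show both classes at once. The 9 fibrillar chains together were at 120, 115 and 128 TPM in day 4 si-CTL and at 210, 300 and 283 TPM in day 4 si-Rsl24d1 libraries. The 17 basement membrane chains were at 213, 192 and 209 TPM and at 287, 398 and 375 TPM. Replicate 1 of the si-Rsl24d1 group was the lowest for both sums, above every si-CTL library. At day 0 the basement membrane sum was 187 to 226 TPM in si-CTL, with a mean of 205 TPM on both days, and the fibrillar sum was 44.3 to 56.0 TPM. The ratio of the basement membrane to the fibrillar sum was 4.26 ± 0.25 (SD, n = 3) in day 0 si-CTL, 5.58 ± 0.21 in day 0 si-Rsl24d1, 1.70 ± 0.07 in day 4 si-CTL and 1.34 ± 0.02 in day 4 si-Rsl24d1 libraries. With rescue it was 4.25 ± 0.18, 6.16 ± 0.05, 1.62 ± 0.03 and 1.52 ± 0.09 in the same order.

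**Figure D4:**
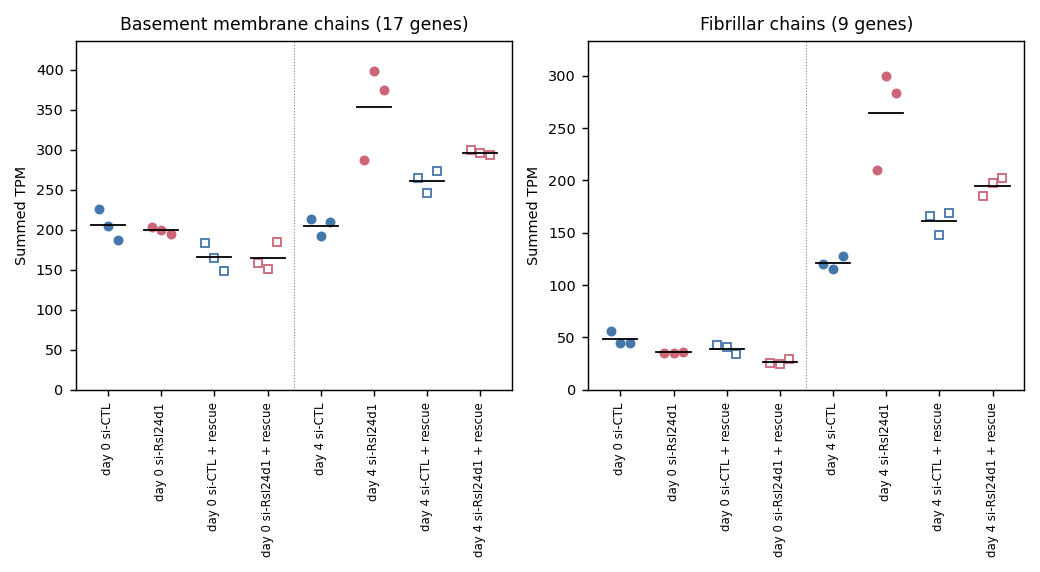
Summed TPM of the 17 basement membrane chains (left) and the 9 fibrillar chains (right) in each of the 24 libraries, with circles without and squares with rescue, si-CTL in blue, si-Rsl24d1 in red and a line at the mean of 3. Both sums are on average highest in the day 4 si-Rsl24d1 group, at 287 to 398 and 210 to 300 TPM. Its lowest basement membrane sum lies below those of the day 4 rescued si-Rsl24d1 libraries (293 to 299 TPM). The fibrillar sum is low at day 0 in all groups.

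Because TPM is per length, chains that share a molecule can be set against each other, here as a description. Type I collagen takes 2 chains of Col1a1 to 1 of Col1a2 in its usual form, and the ratio of their TPM was 2.05 to 2.28 in day 0 si-CTL and 0.828 to 0.888 in day 4 si-CTL libraries. In day 4 si-Rsl24d1 libraries it was 1.74 to 2.25, near the day 0 values. With rescue it was 0.989 to 1.05 and 1.16 to 1.21 at day 4. The ratio of Col4a1 to Col4a2 was 1.93 to 2.03 in day 0 si-CTL, 1.38 to 1.53 in day 4 si-CTL and 1.59 to 1.64 in day 4 si-Rsl24d1 libraries.

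Within groups, the ratio of Lamb1 to Lamc1 varied less than that of Lama5 to Lama1. Lamb1 to Lamc1 was 0.437 to 0.450 in day 0 si-CTL and 0.734 to 0.793 in day 0 si-Rsl24d1 libraries, with 0.432 to 0.435 and 0.570 to 0.627 in the rescue groups. At day 4 it was 0.711 to 0.723 in si-CTL and 0.870 to 0.884 in si-Rsl24d1 libraries, with 0.708 to 0.723 and 0.823 to 0.846 with rescue. At each day, with and without rescue, every si-Rsl24d1 library lay above every si-CTL library. Lama5 to Lama1, the exchange between the α chains, was 3.99 to 4.42 in day 0 si-CTL and 8.14 to 9.51 in day 0 si-Rsl24d1 libraries, and 3.28 to 4.66 and 2.09 to 2.31 at day 4. The siRNA groups thus differed in opposite directions on the 2 days.

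**Figure D5:**
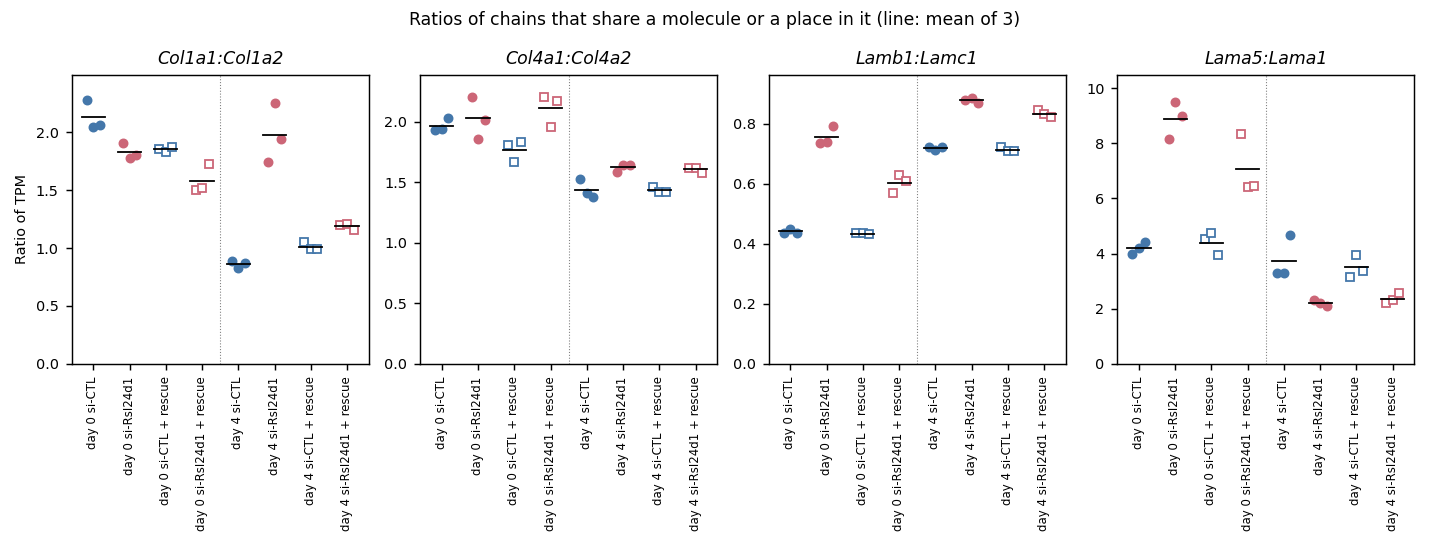
Ratios of TPM of paired chains in each of the 24 libraries, with circles without and squares with rescue, si-CTL in blue, si-Rsl24d1 in red and a line at the mean of 3. Col1a1 to Col1a2 is 0.828 to 0.888 in day 4 si-CTL and 1.74 to 2.25 in day 4 si-Rsl24d1 libraries, and Lamb1 to Lamc1 is higher in si-Rsl24d1 than in si-CTL libraries in all 4 pairs of groups.

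Other genes of the matrix pathway were read from lists of enzymes, partners, receptors and proteases. At day 0, si-Rsl24d1 cells had 1 of 18 tested collagen-modifying enzymes called, Plod2, a lysyl hydroxylase of collagen telopeptides, at 35.3 to 40.4 TPM in si-CTL and 80.1 to 82.6 TPM in si-Rsl24d1 cells (log2 rise 1.11), where 4.18% of all tested genes were called. Of 10 basement membrane partners, Npnt, an integrin ligand, rose by 1.41. Of 11 tested receptors, Itgb4, the integrin β chain of hemidesmosomes, rose by 1.4 and Ddr1, a collagen-binding kinase, by 1.10. Of 9 proteases and inhibitors, Mmp15, a membrane-type metalloprotease, rose by 0.94. Of 12 tested processing and cross-linking enzymes, 0 were called in limma (7 at an unadjusted p below 0.05). Of all 16447 tested genes, 7835 were at an unadjusted p below 0.05 in limma.

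At day 4, the called genes in si-Rsl24d1 against si-CTL cells were others, where 1.63% of all tested genes were called. They were P3h2, a prolyl 3-hydroxylase (1.04, 1 of 18 modifying enzymes), Tll1 and Adamts2, proteases that trim procollagens (1.17 and 0.90, 2 of 12), and Nid1, which links laminin to type IV collagen, and Smoc2, a matricellular protein (1.01 and 1.62, 2 of 10 partners). Timp3, a metalloprotease inhibitor, rose by 1.06 (1 of 9), and 0 of 11 receptors were called in limma (9 at an unadjusted p below 0.05). Of all 16447 tested genes, 8741 were at an unadjusted p below 0.05 in limma. Nid1 was at 18.7 to 19.0 TPM in si-CTL and 32.1 to 44.5 TPM in si-Rsl24d1 cells. The medians of these lists were 0.30, 0.38, 0.53, 0.43 and 0.36 for the modifying enzymes, processing enzymes, partners, proteases with inhibitors and receptors, against 0.13 over all genes.

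From day 0 to day 4 in si-CTL cells, P4ha1, which hydroxylates the prolines of collagen, rose by 1.92 and Serpinh1, its chaperone, by 1.38 (2 of 18, where 15% of all tested genes were called). Loxl1, a cross-linking oxidase, rose by 1.07, while Pcolce2 and Pcolce, enhancers of procollagen cleavage, fell by 1.35 and 1.16 (3 of 12). Npnt, Smoc2 and Sparc rose by 1.8, 1.37 and 0.88 (3 of 10). Mmp2, a gelatinase, rose by 1.93 and Timp2, which helps activate it, by 0.97 (2 of 9). Of 11 tested receptors, the collagen receptor Itga11 and the laminin receptor Itga7 rose by 0.94 and 0.91 and Bcam, which binds Lama5 laminins, fell by 0.87.

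Marker genes of other cell types were read beside these values. In day 4 si-Rsl24d1 against si-CTL cells, 1.63% of all tested genes were called, and 8741 of 16447 were at an unadjusted p below 0.05 in limma. Of 11 markers of extraembryonic endoderm, 7 were tested and 3 rose there (2 under median of ratios scaling), Cubn by 1.09, Gata6 by 0.99 and Dab2 by 0.87. Their summed level was 18.6 to 24.9 TPM in si-CTL and 38.3 to 51.2 TPM in si-Rsl24d1 libraries, and 5.16 to 6.97 TPM in day 0 si-CTL libraries, where Ttr was listed at 0. Of 10 markers of mesenchyme and fibroblasts, 9 were tested and 4 rose (3 under median of ratios scaling), Prrx1 by 1.79, Twist1 by 1.51, Postn by 1.31 and Fbn1 by 0.94. Their sum was 264 to 273 TPM against 454 to 543 TPM, and Lum was at 0.181 TPM or less in both groups. With rescue, the sums at day 4 were 22.8 to 28.4 and 35.5 to 37.6 TPM for extraembryonic endoderm and 300 to 312 and 337 to 349 TPM for mesenchyme in si-CTL and si-Rsl24d1 libraries. Endothelial markers were at 47.7 to 51.9 and 54.8 to 64.0 TPM at day 4 without rescue, and 0 of 3 tested were called in limma (2 at an unadjusted p below 0.05). At day 0 without rescue, where 4.18% of all tested genes were called, 0 of 7 extraembryonic markers were called in limma (1 at an unadjusted p below 0.05, as were 7835 of all 16447 tested genes). Twist1 alone of the mesenchymal markers was called, with a rise of 0.97. The mesenchymal sum at day 0 was 151 to 159 TPM in si-CTL and 194 to 199 TPM in si-Rsl24d1 libraries. The median log2 difference of the 9 tested mesenchymal markers was 0.01 there, with 5 above 0. Of 3 endothelial markers Tek rose at day 0, by 1.30, and of 5 neural markers Nes rose at day 4, by 1.17. Of 7 stem cell markers, Esrrb and Zfp42 fell at day 0, by 1.09 and 0.96, and 0 were called at day 4 in limma (3 at an unadjusted p below 0.05). The part of such cells in the collagen and laminin values was not tested.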

How the data were processed

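Members were the rows whose symbol is a Col or Lam chain name, and the members, gene lists and tests were chosen with earlier results of these data known. RNA-seq of 24 libraries (8 groups of 3, from the labels) was used. Salmon was run by the authors, who deposited gene-level log2 values of TPM + 1. The submitters' processing notes name STAR 2.7.8a and Salmon 1.4.0, and list the human build GRCh38 where the study's methods name the mouse build GRCm38. Depth is unknown.

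Groups were compared with limma 3.58.1 (R 4.3.3; 8 group means, trend, no replicate term) for 16447 genes with a mean of at least 0.5, with Benjamini-Hochberg adjustment within each of 12 comparisons and 3 interactions, two-sided. Calls needed an adjusted p below 0.01 and over 1.8-fold. The fit was tested on simulated data. All basement membrane and fibrillar members are named except 1 that is counted in the totals but not reported here, of other collagens and of each further list at most 3 in each direction per comparison, apart from Col20a1 and Col22a1, Col14a1 and Col6a6, which were named after their values were seen.

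Coordinates are those of gencode vM21 (GRCm38), matched by symbol. Replicate numbers did not pair libraries (mean correlation of deviations -0.02 for equal and 0.01 for other numbers). The alternatives were 0.1 or 2 added to TPM, no filter or one at 1.5, only the groups compared, a replicate block, median of ratios scaling, no fold threshold and each library left out.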

Additional observations from a re-analysis of the deposited data

Results flagged for a closer look

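The effect of the siRNA, si-Rsl24d1 against si-CTL, differed between day 0 and day 4 for 12 members without rescue and 3 with rescue, by an interaction term in limma with an adjusted p below 0.01 and over 1.8-fold. On the log2 scale, as the effect at day 4 minus that at day 0, the fibrillar chains Col3a1, Col1a1 and Col5a1 had 2.20, 2.05 and 1.25. The basement membrane chains Lama1, Lamc1, Lama4 and Col4a5 had 1.82, 1.02, 1.01 and 0.96. Of the other collagens, Col12a1, Col8a1 and Col26a1 had 1.32, 1.03 and 0.90, and Col6a4 and Col6a5 had -1.62 and -0.92. The calls of Col26a1 and Col4a5 were lost under median of ratios scaling (0.78 and 0.83) and with 2 added to the TPM (0.64 and 0.79), and that of Col26a1 also without day 0 si-CTL replicate 2 (0.79) or day 4 si-Rsl24d1 replicate 2 (0.80). With 2 added, those of Lama4 (0.75) and Col6a5 (-0.78) were lost as well. With rescue the values were 1.18 for Col3a1, 1.01 for Col1a1 and -0.89 for Col6a4. Besides the left-out libraries given above, the rescue call of Col3a1 was lost with 0.1 added (1.34), with no filter and with only the groups compared. That of Col6a4 was lost with 2 added (-0.65) and without day 0 rescued si-Rsl24d1 replicate 2 (-0.80).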

How the results depend on the processing

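No called member turned its direction under the alternatives run. The number called of 39 depended on the settings. Without a fold threshold it was 15 instead of 2 for si-Rsl24d1 against si-CTL at day 0 and 6 instead of 1 with rescue. It was 21 instead of 10 at day 4 and 2 instead of 1 at day 4 with rescue. For day 4 against day 0 it was 30 instead of 12 in si-CTL cells and 31 instead of 19 in rescued si-Rsl24d1 cells. Of all 16447 tested genes, 2357 higher and 2651 lower met the adjusted p alone at day 0, and 1333 and 928 with rescue. At day 4, 4094 and 993 met it, and 384 and 581 with rescue. For day 4 against day 0, 3969 and 6041 met it in si-CTL cells and 5325 and 4237 in rescued si-Rsl24d1 cells. Rescue against no rescue gave 6 and 5 members instead of 0 in si-Rsl24d1 cells at day 0 and day 4. In si-CTL cells at day 4 it gave 1 instead of 0. Of all tested genes, 504 higher and 2007 lower, 154 and 696, and 1456 and 221 met the adjusted p there. The interactions of the siRNA with day, with day under rescue and with rescue at day 0 gave 25 instead of 12, 5 instead of 3 and 1 instead of 0 members. Of all tested genes, 3630 higher and 1452 lower, 514 and 1123, and 149 and 194 met the adjusted p for these interactions. With 0.1 added to the TPM, the number of members called was 6 at day 0, 2 at day 0 with rescue and 0 at day 4 with rescue. With the same setting it was 21 for day 4 against day 0 in si-CTL cells and 1 for rescue in si-Rsl24d1 cells at day 0. With 2 added it was 0 at day 0 with rescue. A filter at a mean of 1.5, under which fewer members are tested, gave 1 at day 0 and 0 with rescue. Fitting only the groups compared gave 0 at day 4 with rescue, and median of ratios scaling gave 6 at day 4.

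When single libraries were left out in turn, the numbers were 2 to 3 at day 0, 1 to 2 with rescue, 6 to 12 at day 4, 0 to 1 with rescue, 10 to 13, 22 to 24, 17 to 19 and 18 to 20 for day 4 against day 0 in si-CTL, si-Rsl24d1, rescued si-CTL and rescued si-Rsl24d1 cells, 0 to 1 for rescue in si-Rsl24d1 cells at day 4, and 11 to 13 and 1 to 3 for the interaction with day without and with rescue. Col1a1 made the difference for si-Rsl24d1 against si-CTL at day 0 with rescue, called without replicate 3 of either group, and for rescue in si-Rsl24d1 cells at day 4, called without the unrescued replicate 1. The interaction with day under rescue fell to 1 without the day 0 rescued si-Rsl24d1 replicate 2, where Col3a1 and Col6a4 were lost. Replicate numbers did not pair the libraries, and with the replicate block the numbers called were 2 at day 0, 10 at day 4 and 12 for the interaction with day, as without it. The block changed none of the other 12 numbers either.

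Median of ratios scaling removed shifts of the all-gene median of 0.13 for the siRNA at day 4, -0.10 and 0.12 for day 4 against day 0 in si-CTL and rescued si-CTL cells, -0.11 and -0.12 for rescue at day 0 in si-Rsl24d1 and si-CTL cells, and 0.14 for the interaction with day. The split of all genes called changed with it. It went from 1114 higher and 1355 lower to 1406 and 954 for day 4 against day 0 in si-CTL cells, from 1767 and 792 to 1381 and 1047 in rescued si-CTL cells, and from 477 and 445 to 275 and 584 for the interaction. Depth is unknown, so members listed near 0 cannot be given a limit of detection.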
